A study of Rattus norvegicus with 3 samples.

Results

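The comparison described here sets 1 RNA sequencing library of INS-1 832/13 cells overexpressing NIK against 1 library of the same cells overexpressing β-Gal. INS-1 832/13 is a rat insulinoma line that releases insulin in response to glucose and is used to study the beta cell. NIK is the NF-κB-inducing kinase and β-Gal is β-galactosidase, a common control protein for overexpression. The series holds 3 libraries in all, and the other one, from cells overexpressing NIK(KA), is shown only beside single gene models and groups of them. The labels do not describe NIK(KA), a name used in published work for a kinase-dead NIK carrying a lysine-to-alanine change. The sources used here give no vector, dose, time after gene transfer or level of overexpressed protein.

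Gene models, the rows of the deposited files, were compared if their FPKM was 5 or more in either library. FPKM is a number of reads divided by the gene model's length and by the library's total. Of 34340 gene models, 10823 met this rule and 23517 did not. Among the 10823, 9529 reached an FPKM of 5 in both libraries, 713 only in NIK and 581 only in β-Gal. At the edge of the rule, the last gene model inside had a larger FPKM of 5.00188 and the first outside one of 4.99933. With 1 library per group there is no replicate error and no p-value, and every difference below separates 2 libraries, which need not be a difference between 2 conditions.

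NIK works at the head of the non-canonical NF-κB pathway. In resting cells the adaptor TRAF3 keeps NIK protein low by steady degradation. When NIK accumulates it activates the kinase IKKα, which leads to processing of the precursor p100 to p52, and p52 enters the nucleus with RelB and binds target genes. Targets known from other cell types include chemokines, adhesion molecules, antigen presentation genes and NF-κB subunits, and in islets the pathway is studied as a link between inflammation and impaired beta-cell function.

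None of these genes can be given by name here. The files list gene IDs without symbols, and the reference table at hand, of 47357 rat genes, carries an Ensembl ID for 0 of them. The gene of NIK and the defining genes of the beta cell could therefore not be looked up, and neither the label of the NIK library nor the identity of the cells was checked against expression. For the same reason no promoter sequence is printed. Gene models are described by their level in the control, the size of their difference and their rank, and 4 of them by ID.

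The libraries were close in depth and breadth. Worked out from the FPKM steps, the totals were 17457498 reads (β-Gal), 15095979 reads (NIK) and 14349721 reads (NIK(KA)). Gene models above 0 numbered 19199, 19839 and 20039 in that order. On a length of 1000 bases, 1 read amounted to an FPKM of 0.0573, 0.0662 and 0.0697.

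Most transcripts stood at similar levels with NIK and with β-Gal, and a minority stood far apart, with a longer tail on the higher side. Differences stayed within 1.5-fold for 8011 of the 10823 gene models (74.0%). On the log2((FPKM + 1) / (FPKM + 1)) scale the median ratio of NIK to β-Gal was 0.01, with quartiles of -0.29 and 0.33. The outer percentiles were uneven, with percentile 1 at -1.68 and percentile 99 at 2.72.

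At least 2-fold higher in NIK were 733 gene models, 6.77% of those compared, and at least 2-fold lower were 454, or 4.19%. The last gene model inside the higher group had a log2 ratio of 1.00041 and the first outside it 0.99997. On the lower side these were -1.00015 and -0.99878. Up to 16-fold the tails grew more unequal with the size of the difference. Past 4-fold lay 228 higher and 59 lower gene models, past 8-fold 83 and 10, past 16-fold 30 and 3, and past 32-fold 8 and 1.

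**Figure D1:**
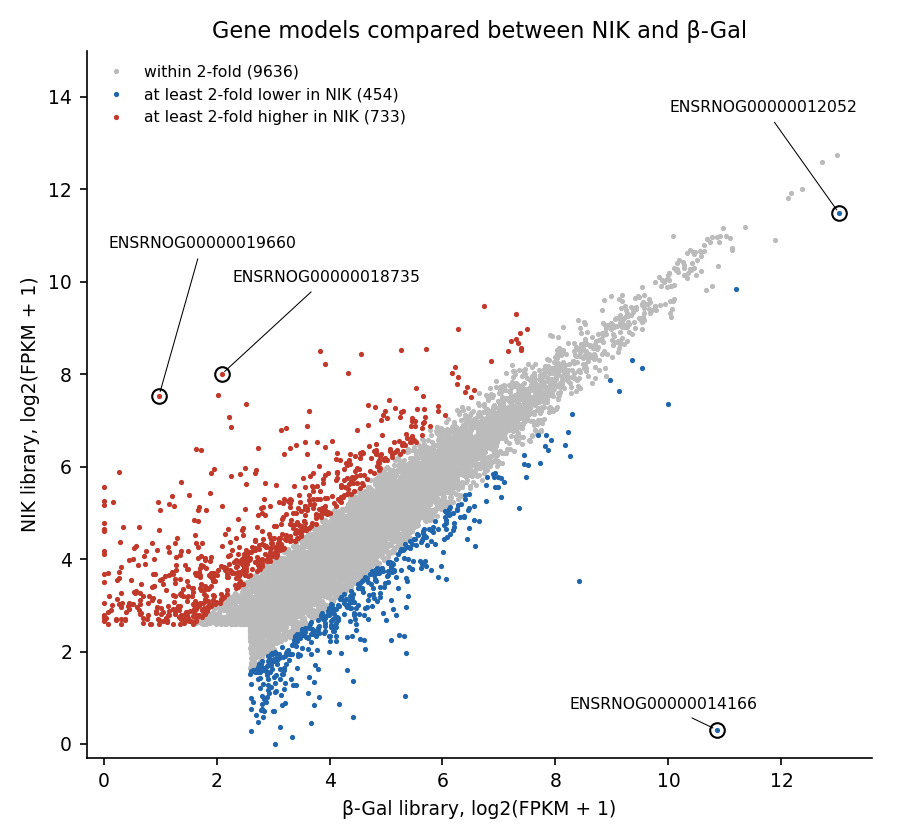
Each point is 1 of the 10823 gene models compared, with its level in the β-Gal library on the horizontal axis and in the NIK library on the vertical axis, both as log2(FPKM + 1). Red points (733) are at least 2-fold higher in NIK, blue points (454) at least 2-fold lower and grey points (9636) lie between. The 4 gene models named by ID are circled, and the red cloud reaches farther from the diagonal than the blue one except for a single blue point at the lower right.

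The higher and lower groups are given next by their levels. Of the 733 higher gene models, 359 reached an FPKM of 5 in β-Gal, and the others were lower there by the rule that let them in, so the control level of the higher group is a description only. Its median FPKM was 4.75 in β-Gal (quartiles 1.98 and 12.7) and 18.6 in NIK (9.99 and 46.4). The lower group had a median FPKM of 18.8 in β-Gal (9.43 and 40.8), close to the 19.2 of all gene models compared, and of 5.98 in NIK (2.81 and 14.0). The NIK(KA) library had medians of 5.91 for the same higher group and 10.4 for the lower one. NIK and NIK(KA) share the β-Gal control, so these values are set side by side only.

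The balance of the tails differed with the level in the control. A gene model under an FPKM of 5 in β-Gal entered the comparison only by reaching 5 in NIK, so its direction was fixed by the rule and nothing is read from it. Of the 15141 gene models listed at 0 in β-Gal, 18 were compared. Of the 5342 above 0 and under 1, 86 were compared, and of the 3747 from 1 to under 5, 609. At least 2-fold higher were 18, 86 and 270 of these, and the median log2 ratios of the classes were 3.89, 2.63 and 0.90.

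Among the 10110 gene models that reached an FPKM of 5 in β-Gal, a choice that does not use the NIK value, 359 (3.55%) were at least 2-fold higher in NIK and 454 (4.49%) at least 2-fold lower. By the rule, every gene model lower in NIK meets this choice, while higher ones can fail it. The longer lower list thus follows at least in part from the choice, and nothing is read from it. From an FPKM of 5 to under 20 the counts were equal, 240 higher and 240 lower of 4846 (4.95% each). From 20 to under 100, 108 (2.56%) were higher and 178 (4.22%) lower of 4221. At 100 and more, 11 (1.05%) were higher and 36 (3.45%) lower of 1043. The median log2 ratio at 100 and more was -0.08.

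Grouped by their level in NIK, gene models gave the opposite balance. From an FPKM of 5 to under 20 in NIK, 382 of 4898 (7.80%) were higher and 165 (3.37%) lower. At 100 and more in NIK, 69 of 1060 (6.51%) were higher and 11 (1.04%) lower. Grouping by either library favours the tail in which that library is the larger, so neither view is free of the choice of library. In the 9529 gene models at an FPKM of 5 or more in both libraries, a choice that treats the libraries alike, 359 were higher and 253 lower.

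**Figure D2:**
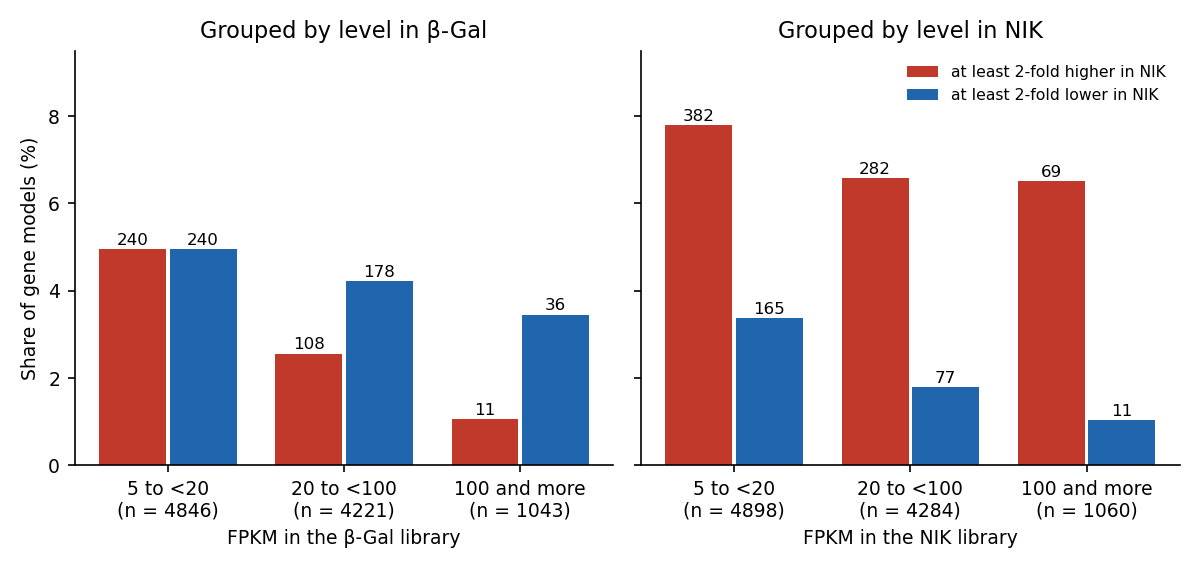
Bars give the share of gene models, in percent, that were at least 2-fold higher (red) or at least 2-fold lower (blue) in NIK, with β-Gal as the control, for 3 classes of FPKM in the β-Gal library (left) and in the NIK library (right). Numbers on the bars are gene models. At 100 and more, blue exceeds red by 36 to 11 on the left, and red exceeds blue by 69 to 11 on the right.

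The most abundant transcripts of the control were mostly at similar levels in NIK. Of the 71 gene models at an FPKM of 1000 or more in β-Gal, 60 were within 1.5-fold in NIK, 0 were at least 2-fold higher and 4 at least 2-fold lower. Their median log2 ratio was -0.09. Together they held 21.9% of all FPKM in β-Gal and 19.1% in NIK. In NIK, 56 of them still reached 1000, as did 5 others. Any higher value in NIK was found for 30 of the 71 and any lower value for 41. Of the 10 gene models highest in β-Gal, 7 were also among the 10 highest in NIK. All 10 had a lower FPKM in NIK, by log2 ratios of -1.54 to -0.13, and 9 had a lower FPKM in NIK(KA). Choosing the highest values of β-Gal favours lower values in the other libraries, so nothing is read from these counts.

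The gene model with the most FPKM in the control, ENSRNOG00000012052, was one of the 4 at least 2-fold lower in NIK. Its FPKM was 2860 in NIK, compared with 8321 in β-Gal and 4931 in NIK(KA). The β-Gal library was highest and the NIK library lowest, and the gene model ranked 1 in β-Gal and 6 in NIK. It held 1.37% of all FPKM in β-Gal, 0.816% in NIK(KA) and 0.478% in NIK. Of the FPKM differences summed over all gene models lower in NIK, it made up 6.69%.

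Next among the 4 was a gene model of at least 466 bases, ranked 9 in β-Gal. Its FPKM was 913 in NIK, compared with 2339 in β-Gal and 1186 in NIK(KA), and it was 2.56-fold below β-Gal in NIK (95% counting interval 2.49 to 2.63). Another, of at least 1052 bases, had an FPKM of 162 in NIK, compared with 1015 in β-Gal and 524 in NIK(KA), with a log2 ratio of NIK to β-Gal of -2.64. In each of these β-Gal was highest, NIK(KA) lay between and NIK was lowest. They were chosen for a high value in β-Gal and a low one in NIK, so nothing is read from that order.

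Just outside the 2-fold rule was the gene model ranked 7 in β-Gal. Its FPKM was 1930 in NIK, compared with 3802 in β-Gal and 2767 in NIK(KA), and it was 1.97-fold below β-Gal in NIK (1.95 to 1.99). The order of the 3 libraries was the same as in the gene models above.

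**Figure D3:**
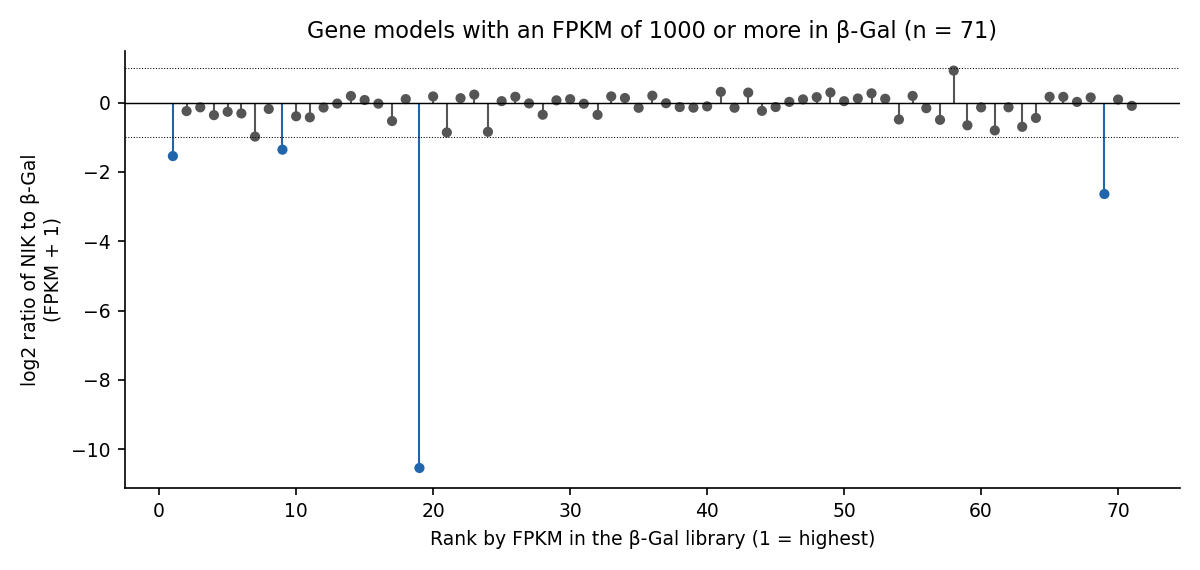
The 71 gene models with an FPKM of 1000 or more in the β-Gal library are ordered from the highest (rank 1) to the lowest, and the vertical axis gives the log2 ratio of NIK over β-Gal on the FPKM + 1 scale, 1 library a side. Dotted lines mark 2-fold. The 4 blue points lie at least 2-fold lower, 1 of them at -10.55, and no point lies above the upper dotted line.

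ENSRNOG00000014166, the last of the 4, had the largest log2 difference of all gene models compared. Its FPKM was 0.238 in NIK, compared with 1850 in β-Gal and 0.175 in NIK(KA). The lowest read numbers that fit were 10 in NIK and 7 in NIK(KA), compared with 89799 in β-Gal, over a length of at least 2781 bases. It ranked 19 in β-Gal and 17194 in NIK and made up 2.26% of the summed FPKM differences on the lower side. Because NIK(KA) lacks it as well, its near absence in NIK cannot be told apart from something particular to the β-Gal culture or construct.

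At an FPKM of 100 or more in β-Gal, these 4 included, 36 gene models were at least 2-fold lower in NIK. Their FPKM had a median of 66.2 in NIK, compared with 208 in β-Gal and 119 in NIK(KA), and their median log2 ratio of NIK to β-Gal was -1.39. The NIK(KA) value was below β-Gal for 36 of the 36 and lay between the other libraries for 33. The 36 were chosen for a high value in β-Gal and a low one in NIK. That choice favours a NIK(KA) value below β-Gal and between, so nothing is read from these counts. Among the 71 gene models at 1000 or more in β-Gal, NIK(KA) was below β-Gal for 34, above it for 37 and between for 34. On the higher side were 11 gene models, with a median FPKM of 422 in NIK, compared with 157 in β-Gal and 148 in NIK(KA). For these the NIK(KA) value was above β-Gal for 3 and below it for 8.

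The 12 gene models with the highest log2 ratios had FPKM of 26.4 to 255 in NIK, compared with 0 to 4.74 in β-Gal and 0 to 4.12 in NIK(KA). In β-Gal, 7 of them were under an FPKM of 1, and 4 of those had no read. In NIK(KA), 7 of the 12 were also under 1. The NIK(KA) value was within 2-fold of β-Gal on the FPKM + 1 scale for 11 of the 12. Values under 1 in both libraries are within 2-fold on this scale whatever their ratio, so that count is partly fixed by the pseudocount. Rank 8 is such a case, with a plain ratio of NIK(KA) to β-Gal of 2.33 (counting interval 1.11 to 5.14). All 12 were compared only because of their level in NIK and were chosen for the distance between NIK and β-Gal, so nothing is read from their low values in β-Gal, and the NIK(KA) values had no part in the choice.

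ENSRNOG00000019660, ranked 1 by ratio, had an FPKM of 185 in NIK, compared with 0.975 in β-Gal and 1.11 in NIK(KA). By level it ranked 503 among all gene models in NIK. ENSRNOG00000018735, ranked 2 by ratio, had an FPKM of 255 in NIK, compared with 3.25 in β-Gal and 3.34 in NIK(KA), and ranked 337 by level in NIK. NIK was far above the other libraries for both, and those other libraries differed little from each other.

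As plain ratios of FPKM, without the pseudocount, larger folds were found further down that ranking. Rank 8, a gene model of at least 5485 bases, had an FPKM of 36.9 in NIK (3054 reads), compared with 0.125 in β-Gal (12 reads) and 0.292 in NIK(KA) (23 reads). NIK exceeded β-Gal 294-fold (168 to 570). Rank 3, of at least 3060 bases, had an FPKM of 57.8 in NIK (2671 reads), compared with 0.206 in β-Gal (11 reads) and 0.296 in NIK(KA) (13 reads), a ratio of 281-fold (157 to 563). Both intervals overlap that of ENSRNOG00000019660, which was 142 to 260, so the order of these 3 by fold is not resolved by the reads.

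Others had no read at all in the control. Rank 7, of at least 1964 bases, had 1041 reads in NIK (FPKM 35.1), 2 in NIK(KA) (FPKM 0.0710) and 0 in β-Gal. A count of 0 in 1 library allows up to 3 reads, and set against these its level in NIK was at least 401-fold higher. Rank 6 had 305 reads in NIK, 3 in NIK(KA) and 0 in β-Gal and was at least 118-fold higher. Rank 4 has a length of at least 63 bases and 44 reads in NIK, and it was at least 17.0-fold higher.

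Rank 10 was the exception in NIK(KA) among the 12. Its FPKM was 133 in NIK, compared with 3.69 in β-Gal and 0.455 in NIK(KA). NIK was 36.1-fold above β-Gal (28.4 to 46.6), and NIK(KA) was below β-Gal.

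**Figure D4:**
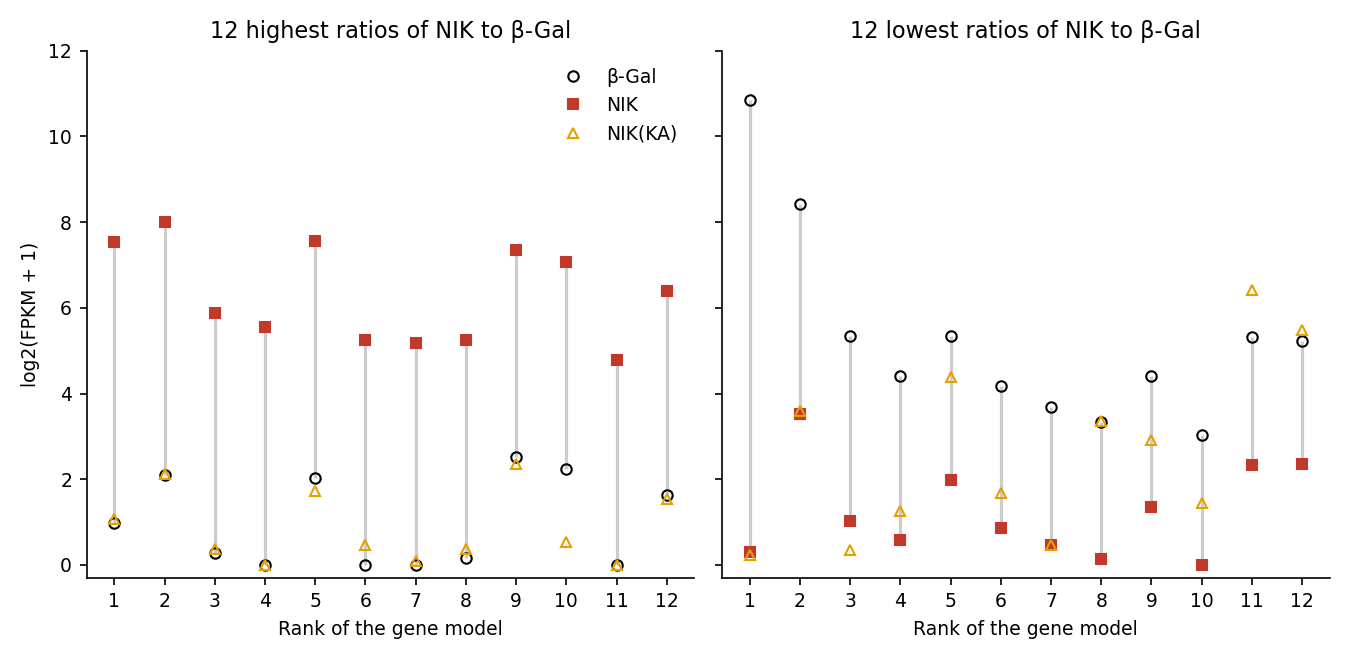
For the 12 gene models with the highest (left) and the 12 with the lowest (right) ratio of NIK to β-Gal, symbols give log2(FPKM + 1) in the β-Gal (open circle), NIK (filled square) and NIK(KA) (open triangle) libraries, 1 library each. On the left the triangles lie close to the circles for 11 of 12 ranks, on a scale where values under an FPKM of 1 always lie close together. On the right they range from near or below the NIK value (ranks 1, 2, 3 and 7) to at or above the β-Gal value (ranks 8, 11 and 12).

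In all, 18 compared gene models had no read in β-Gal. They had 26 to 1041 reads in NIK and a median FPKM of 14.0 there, and 8 of them had no read in NIK(KA) either. The NIK(KA) value was under an FPKM of 1 for 16 of the 18. The other 2 had an FPKM of 24.3 in NIK and 12.8 in NIK(KA) in one case, and of 7.27 and 10.5 in the other, so for these NIK was not the only library with signal.

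The gene models at least 2-fold higher that had an FPKM of 100 or more in NIK numbered 69. Their median FPKM was 158 in NIK, compared with 44.9 in β-Gal and 40.3 in NIK(KA), and 1 of them was under 1 in β-Gal. The top gene model of the 69 by level had an FPKM of 716 in NIK, compared with 106 in β-Gal and 40.3 in NIK(KA), a ratio of NIK to β-Gal of 6.75-fold (6.38 to 7.14). The next had 629 in NIK, compared with 156 in β-Gal and 148 in NIK(KA), a ratio of 4.03-fold (3.91 to 4.16). After it came one with 506 in NIK, compared with 76.1 in β-Gal and 38.1 in NIK(KA), a ratio of 6.64-fold (6.36 to 6.94). NIK was highest and NIK(KA) lowest for all 3. Across the 69, the NIK(KA) value was above β-Gal for 27 and below it for 42. It was within 2-fold of β-Gal on the FPKM + 1 scale for 56. For some of the 69 it exceeded NIK, as in one with 147 in NIK, 59.2 in β-Gal and 452 in NIK(KA). The choice of the 69 used the β-Gal value, so nothing is read from these counts.

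The lowest ratios formed a mixed set when NIK(KA) was set beside them. The 12 gene models with the lowest log2 ratios had FPKM of 0 to 10.5 in NIK, compared with 7.16 to 1850 in β-Gal and 0.175 to 84.8 in NIK(KA). The NIK(KA) value was below β-Gal for 9 and above it for 3. Rank 2 from the bottom, of at least 120 bases, had an FPKM of 10.5 in NIK, compared with 342 in β-Gal and 11.0 in NIK(KA), and was 32.6-fold below β-Gal in NIK (20.7 to 54.5). There NIK and NIK(KA) lay close together. Ranks 3 and 7 were also low in both, with FPKM of 1.04 and 0.370 in NIK and 0.273 and 0.390 in NIK(KA). In β-Gal these had 39.5 and 11.8. For ranks 2, 3 and 7 too, the low value in NIK cannot be told apart from something particular to the β-Gal culture or construct. Ranks 4, 6 and 9 had FPKM of 0.503, 0.815 and 1.55 in NIK and 1.41, 2.18 and 6.54 in NIK(KA). In β-Gal they had 20.2, 17.0 and 20.2. NIK(KA) was thus well below β-Gal there as well, and the same limit holds for at least part of their difference. Rank 11 had an FPKM of 4.02 in NIK, compared with 39.0 in β-Gal and 84.8 in NIK(KA), and was 9.71-fold below β-Gal in NIK (6.99 to 13.8). Rank 12 had 4.12 in NIK, compared with 36.6 in β-Gal and 43.6 in NIK(KA), and was 8.88-fold lower (7.34 to 10.8). For both of these NIK was lowest and NIK(KA) highest.

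Some of the lowest ratios rest on few reads. Rank 8 had 1 read in NIK, 96 in β-Gal and 80 in NIK(KA), a ratio of β-Gal to NIK of 83.0-fold with a counting interval of 14.5 to 3313. Rank 10 had no read in NIK, 5 in β-Gal and 1 in NIK(KA), over a length of at least 40 bases, and its counting interval includes a ratio of 1. Across the lower group, 438 of 454 gene models had an interval that left out a ratio of 1, and the other 16 were all under 300 bases with 5 to 23 reads in β-Gal. In the higher group the interval left out 1 for 728 of 733. Gene models entered these groups for a difference in the same reads, so the intervals describe counting error and are no separate check.

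Short gene models were more frequent in the lower group. Those under 300 bases made up 9.47% of the lower group (43), 4.77% of the higher group (35) and 3.85% of all gene models compared (417). Among short gene models 10.3% were lower and 8.39% higher, and among the 2723 gene models of 3000 bases or more 3.71% were lower and 6.24% higher. Lengths worked out from the FPKM steps are lower limits, so the shares of short gene models are upper limits.

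Gene models without an Ensembl ID were called more often in both directions. Of 338 compared, 61 (18.0%) were at least 2-fold higher and 40 (11.8%) at least 2-fold lower, beside 672 (6.41%) and 414 (3.95%) of the 10485 with an Ensembl ID. Their median FPKM was 7.43 in β-Gal and 8.52 in NIK, compared with 19.7 and 20.2 for those with an Ensembl ID. They were thus also less abundant, and the part of level in their calls was not tested.

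Summed over gene models, the differences on both sides were of like size but unlike in concentration. FPKM is scaled to the library's total, and the FPKM sums were close, at 605603 in β-Gal and 597898 in NIK. The like size therefore follows from the scaling, and nothing is read from it. The 5549 gene models with any higher value in NIK exceeded β-Gal by 73318 FPKM in all, equal to 12.1% of the FPKM sum of β-Gal. The 5274 with a lower value fell short of β-Gal by 81697 FPKM, or 13.5%. On the higher side 383 gene models held 50% of the sum, and on the lower side 173 did. The 10 largest differences made up 6.06% of the sum on the higher side and 19.9% on the lower side. Gene models at least 2-fold apart carried 32.0% of the higher sum and 25.7% of the lower one, so most of the difference in FPKM lay in gene models within 2-fold.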

How the data were processed

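The authors deposited 1 FPKM value per gene model and library, which they computed from their reads. Per the submitters' processing notes TopHat2 and HTSeq 0.6.1 were used. The notes name the mouse build GRCm38 while the deposited IDs are rat Ensembl IDs (32883, beside 1457 others), so no coordinates are given. The sources used here do not state strandedness or filters, and overlapping or near-identical genes cannot be told apart.

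Library totals, read numbers and lengths were recovered from the FPKM steps, taking for each gene model the smallest whole numbers that fit. All 22026 gene models above 0 came out whole within 1e-06 reads at lengths of at most 100000 bases. Read numbers and lengths are lower limits, and the read numbers add up to 96.1% (β-Gal), 95.9% (NIK) and 95.9% (NIK(KA)) of each total. The steps were run on simulated libraries built from these recovered lengths and totals, with the shortest lengths raised. That run concerns the working of the steps and is no separate check of the recovered values.

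Ratios used a pseudocount of 1, which understates the change of low genes. Counting intervals are exact 95% intervals (Clopper and Pearson) on the split of reads between 2 libraries. Like the limit of 3 reads, they describe the error of counting alone and treat reads as independent molecules, which they are not. Python 3.11.15, numpy 2.4.6, pandas 2.3.3 and scipy 1.17.1 were used.

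The comparison and its settings were chosen with earlier results of these data known. Genes were to be named from 24 lists by symbol, and 0 IDs matched a symbol, so those lists were not counted. By the rule for that case the 2 Ensembl gene models with the highest ratio, the 1 with the lowest and the 1 with the highest FPKM in β-Gal are named by ID, and others by rank, level, length and reads. Alternatives were other pseudocounts, minimum FPKM values, fold thresholds and scalings.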

Additional observations from a re-analysis of the deposited data

How the results depend on the processing

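The counts of at least 2-fold higher and lower gene models stayed within 1.5 times of 733 and 454 with pseudocounts of 0.1 and 0.5 and under all 3 scalings. They were 465 and 215 with a pseudocount of 5, 1192 and 705 with a minimum FPKM of 1 or none, 351 and 214 with a minimum of 20, 1555 and 1257 at 1.5-fold, and 365 and 128 at 3-fold. Higher exceeded lower under each of these settings.

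The median log2 ratios of the classes at 0, above 0 to under 1 and 1 to under 5 FPKM in β-Gal follow the settings by construction. They were 7.12, 3.93 and 1.06 with a pseudocount of 0.1, 4.84, 3.18 and 0.99 with 0.5, and 1.91, 1.23 and 0.54 with 5. With no minimum FPKM they were 0.21, 0.022 and -0.030, with a minimum of 1 they were 1.40, 0.86 and -0.030, and with a minimum of 20 they were 4.78, 4.31 and 3.44. The class from 5 to under 20 moved to 0.71 with a minimum of 20. Equal FPKM sums gave 0.016 for that class and -0.0098 for 20 to under 100. An equal upper quartile gave 0.026, -0.0003 and -0.053 for the classes from 5, from 20 and from 100. The scalings shifted log2 ratios of FPKM itself by 0.018 (equal sums), 0.029 (upper quartile) and -0.0084 (median set to 0). With the pseudocount the shift of a gene model depends on its level.

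The 4 gene models named by ID kept their direction under every pseudocount and scaling. No paired analysis was possible because each group has 1 library, and for the same reason no replicate was left out. Depth limits gene models of few reads, above all those under 300 bases.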
